A study of Mus musculus with 7 samples.

Results

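The C/EBP genes encode basic leucine zipper transcription factors, and the family examined here was the listed set of 5 genes, Cebpa, Cebpb, Cebpd, Cebpe and Cebpg, all of them found by symbol among 49943 annotated genes. The family was selected on the H3K4me1 levels of Cebpb and Cebpe, which had stood among the highest protein-coding genes in these same data. The levels at the genes and in the 10 kb bins around them are therefore a description, without a test. Monomethylation of lysine 4 on histone H3 (H3K4me1) marks enhancers, both active and poised, and was read by CUT&Tag in single mouse zygotes. An antibody against the mark guides the Tn5 transposase in this assay, so that sequenced fragments lie at marked chromatin, and the transcriptome was taken from the same zygotes. The study has 7 samples. The deposited H3K4me1 table pools 2 of them, each the zygotes of 1 mouse labelled as untreated. Superovulation was nevertheless induced in all females with PMSG (5 IU), a gonadotropin with follicle-stimulating activity. After 46 to 48 h they were given hCG (5 IU), which triggers ovulation. Zygotes were taken at 23 post-hCG, a time whose unit the labels omit, after enzymatic removal of the cumulus and the zona pellucida. Strain and age are not stated for these H3K4me1 zygotes in the labels used here, while H3K27me3 and RNA were not analysed here.

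C/EBP proteins bind DNA as dimers through a conserved C-terminal basic region and leucine zipper. Cebpa drives the differentiation of hepatocytes, adipocytes and granulocytes, Cebpb acts in inflammation, adipogenesis and the luteinisation of the ovary, Cebpd in the acute phase response and early adipogenesis, and Cebpe in the last steps of granulocyte maturation. Cebpg lacks a strong activation domain and acts mainly as a dimer partner. Mice lacking both Cebpa and Cebpb die with defects of the placenta, so the family has a known role in the embryo, but later than the zygote.

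The table held 1424363 fragments from 16 libraries, each from 1 zygote. Of these, 14 libraries with at least 5000 fragments were kept, 3 with the number 4 in their name and 11 with the number 5, and they ranged from 7106 to 197312 fragments on chromosomes 1 to 19, X and Y. Neither number is linked to a batch by the labels, so the pool is 1 sample with no replicate, and all intervals below are exact 95% Poisson intervals. Such intervals hold for counting error alone, as amplified reads that carry no molecular identifier need not come from separate molecules. Levels are fragment densities relative to the autosomal average (5.62 fragments per 10 kb), so that 1 means average. At a short gene with 2.5 kb on each side, a level of 1 corresponds to about 4 fragments (3.66 for Cebpb and 4.29 for Cebpa), which limits what any single C/EBP gene can show.

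In windows that reach 2.5 kb past each gene end, Cebpe and Cebpb were high, Cebpg was moderately high, and Cebpd and Cebpa could not be told from the autosomal mean. With 1 kb on each side Cebpb had 2.02 (0.551 to 5.18), and against its own 100 kb flanks Cebpg had 1.12 (0.654 to 1.8), both with 1 inside the interval. Summed over the 5 windows, the family held 64 fragments and a level of 2.62 (2.02 to 3.35). Intervals lay above 1 for 3 of the 5 genes and below 1 for 0 of them, against 29.5% and 7.17% of 20665 autosomal protein-coding genes, whose median level was 1.21. For genes of at most 3 kb, the size of 4 of the members, an interval above 1 was reached by 8.65%, and a level of 3 or more was reached by 1.72% of all genes. Since the family was named for these values, the shares are given for scale.

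**Figure D1:**
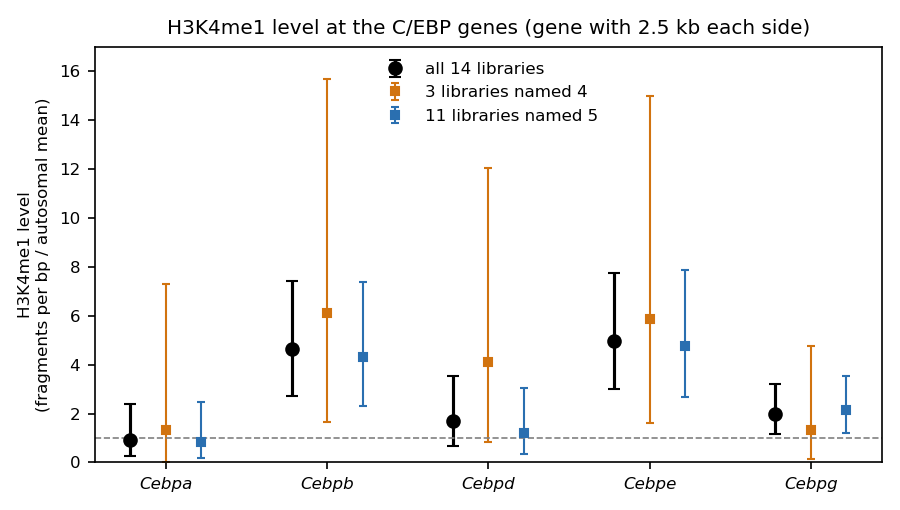
H3K4me1 level (fragments per bp over the autosomal mean, vertical axis) at each C/EBP gene with 2.5 kb each side, for all 14 libraries, the 3 named 4 and the 11 named 5; bars are exact 95% Poisson intervals and the dashed line is a level of 1. Cebpb (4.64) and Cebpe (4.96) lie highest, and the bars of the libraries named 4 are wide because they rest on 1 to 4 fragments a gene.

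Cebpe, the granulocyte factor, had the highest level of the family in the pool of all fragments. The gene lies on chromosome 14 (54710363 to 54712174, mm10), and its window held 19 fragments from 8 of 14 libraries, for a level of 4.96 (2.99 to 7.75), rank 7 among autosomal protein-coding genes. Single libraries gave 0 to 4 fragments, with a median of 1, and libraries 5-2 and 5-4 gave 4 each. All 3 libraries named 4 and 5 of the 11 named 5 had a fragment. Among the 19 fragments, 2 repeated an earlier one of the same library with both ends within 5 bp, as 2.25% of all fragments did. With such repeats counted once the level was 4.54 (2.65 to 7.27). With at most 1 fragment of a library per 1 kb, 14 fragments gave 4.02 (2.2 to 6.75). Cebpb had 4.75 and 4.51 under these settings, so which of these genes was higher depended on the counting. The fragments lay on both sides of the gene, with 8 in the 2.5 kb at lower coordinates (level 5.69, 2.46 to 11.2), 9 in the 2.5 kb at higher coordinates (6.40, 2.93 to 12.2) and 2 in the gene itself (1.96, 0.238 to 7.09).

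Cebpb, which encodes its activating and inhibitory protein forms from an mRNA without introns, followed. It lies on chromosome 2 (167688915 to 167690432), and its window held 17 fragments from 9 of 14 libraries, for a level of 4.64 (2.70 to 7.43), rank 10. Libraries gave 0 to 3 fragments with a median of 1, and 4-5, 5-2 and 5-4 gave 3 each. The 2.5 kb at lower coordinates held 10 fragments (level 7.12, 3.41 to 13.1) and the 2.5 kb at higher coordinates held 7 (4.98, 2.00 to 10.3). The latter overlap the lncRNA gene A530013C23Rik, whose body had a level of 4.01 (2.24 to 6.61). Its 15 fragments include these same 7, so the value is not separate from that of Cebpb. In the gene body lay 0 fragments (limit of the level 3.52), and a difference of the body from the autosomal mean was not detectable at this depth.

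Cebpg, the dimer partner, lies on chromosome 7 (35046422 to 35056566) and is the longest member. Its window contained 17 fragments, 0 to 3 a library and from 9 libraries in all, giving a level of 2.00 (1.16 to 3.2). Unlike at the shorter members, 16 of the 17 fragments lay in the gene body, with a level of 2.81 (1.60 to 4.56). The body makes up 10145 of the 15145 bp of this window, a larger part than at the shorter members. The 2.5 kb at lower coordinates held 1 fragment and those at higher coordinates held 0 (interval up to 2.625).

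Cebpd, the acute phase factor, lies on chromosome 16 (15887286 to 15889545). Its window contained 7 fragments, 1 or 2 from each of 5 libraries, giving a level of 1.72 (0.690 to 3.53). Cebpa lies on chromosome 7 (35119293 to 35121928), and its window held 4 fragments from 4 libraries, 1 in each, for a level of 0.932 (0.254 to 2.39). In order of level the genes ran Cebpe, Cebpb, Cebpg, Cebpd and Cebpa. No neighbours in this order had intervals apart, and the intervals of Cebpe and Cebpb both lay above that of Cebpa. Cebpe and Cebpb had been chosen for these levels, so the order is a description only.

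The libraries named 4 and named 5 gave overlapping intervals at every member. Cebpb had a level of 6.13 (1.67 to 15.7) in the former and 4.32 (2.30 to 7.38) in the latter, and Cebpe had 5.86 (1.60 to 15) and 4.77 (2.67 to 7.86). At Cebpd the values were 4.12 (0.851 to 12.1) from 3 fragments and 1.19 (0.325 to 3.05) from 4 fragments. Over the family, 12 of the 13 libraries above 20000 fragments had a level above 1, with a lowest of 0.738 in library 5-8, a median of 2.73 and a highest of 4.50 in library 4-5. These libraries held 1 to 12 fragments each at the members and are parts of 1 pool, not replicates. The family was selected on levels in that pool, so the count is a description, and it was not taken for other genes. The 64 fragments had a median length of 288 bp and 9.38% were under 150 bp (exact binomial interval 3.52% to 19.3%), beside 321 bp and 8.62% at autosomal protein-coding genes. No base at a member was covered by more than 2 fragments of 1 library.

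Counted together, the 4 short members had more fragments per bp beside the gene than in it, although body and flank intervals overlapped in each of them alone. The bodies of Cebpa, Cebpb, Cebpd and Cebpe held 3 fragments in 8226 bp, a level of 0.649 (0.134 to 1.90), while their 2.5 kb flanks held 44 fragments in 20000 bp, a level of 3.91 (2.84 to 5.26). Protein-coding genes of at most 3 kb had 1.25 (1.20 to 1.29) in the body and 0.952 (0.931 to 0.973) in the flanks. The flanks of Cebpb and Cebpe, the genes chosen for high levels in these windows, supplied 34 of the 44 fragments. Cebpa had 0 fragments in its lower flank (interval up to 2.625) as well as in its body (limit 2.025). Around Cebpa, no fragment midpoint fell from 35115960 to 35122334, a stretch of 6375 bp that covers the whole gene and was singled out after its values were seen. At the autosomal mean 3.58 fragments would lie there, and 7.39 at the level of the surrounding 200 kb. At Cebpb the empty stretch was 2905 bp, where 1.63 fragments would lie at the autosomal mean and 4.61 at the level of the surrounding 200 kb. Empty stretches reached into the other members too, with 4597 bp at Cebpg, 2460 bp at Cebpd and 1053 bp at Cebpe. At Cebpg, 2.58 fragments would lie there at the autosomal mean and 4.64 at the level of its surroundings. How common such stretches are at other genes was not tested.

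**Figure D2:**
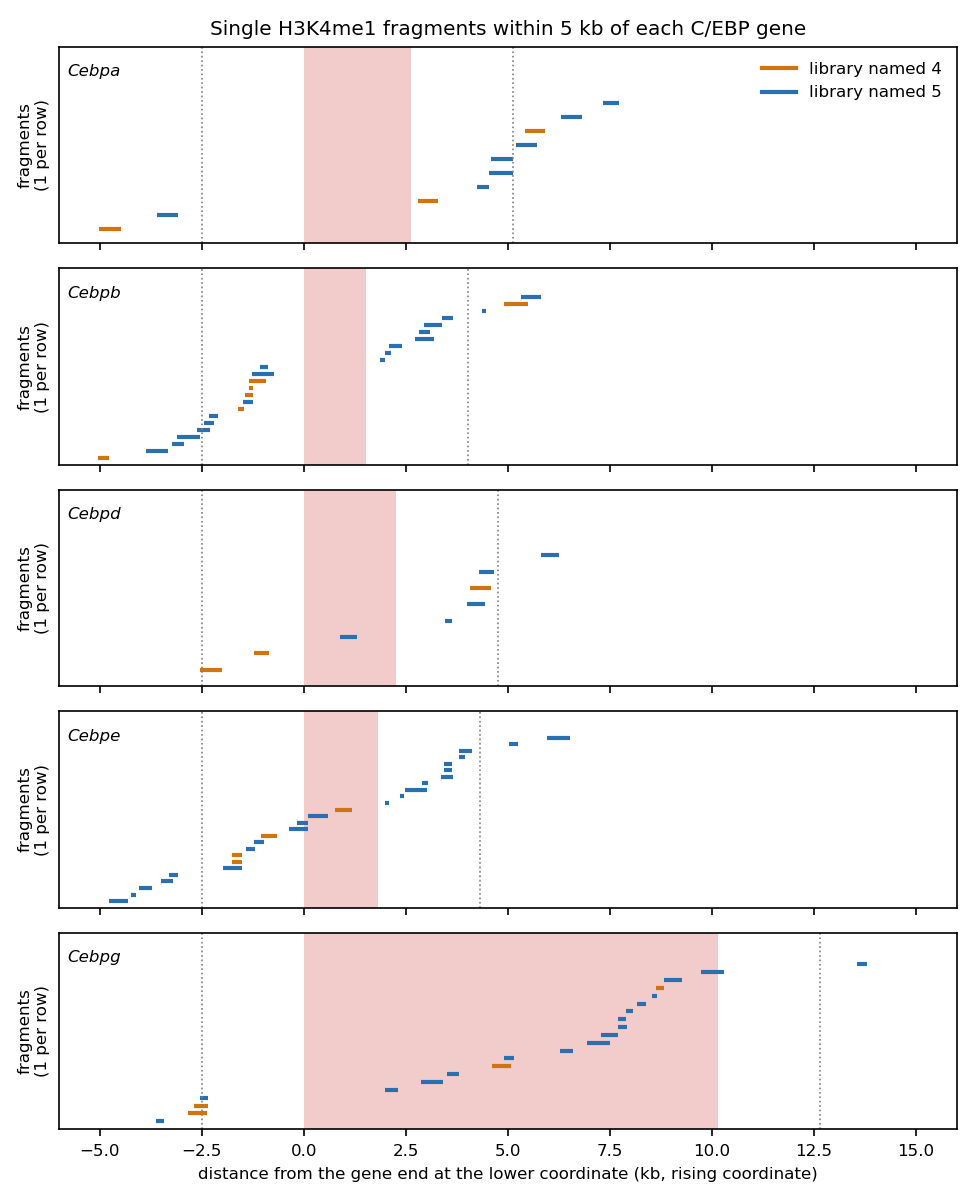
Each bar is 1 H3K4me1 fragment within 5 kb of a C/EBP gene, drawn to scale against the distance from the gene end at the lower coordinate (kb) and stacked by position; orange bars are libraries named 4 and blue bars those named 5, shading is the gene and dotted lines bound the 2.5 kb windows. No fragment lies over Cebpa or Cebpb, whereas 16 fragments are centred in Cebpg.

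Start sites were known for the 3 members in the promoter table. Within 1 kb of the start, Cebpa had 0 fragments (limit 2.67), and Cebpb and Cebpg had 1 fragment each (0.890, 0.0225 to 4.96). From 1 to 5 kb before the start, Cebpb had 13 fragments of 9 libraries and a level of 5.78 (3.08 to 9.89), Cebpa had 2 and Cebpg had 1. From 1 to 5 kb after the start, Cebpg had 10 fragments and a level of 4.45 (2.13 to 8.18), Cebpb had 8 (3.56, 1.54 to 7.01) and Cebpa had 4 (1.78, 0.485 to 4.55). Cebpb thus had its fragments on both sides of the start, and Cebpg nearly all of them into the gene.

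The promoter sequences of these members, from RefSeq for GRCm38.p6, are shown because the values by distance from the start are counted from them. Each runs 5′ to 3′ from 250 bases before the start through the first 50 bases of the transcript. Capitals mark every match, on either strand, to any of 5 motifs. TTGCNNAA is a loose form of the C/EBP site, and CCAAT is the box bound by NF-Y. TATAA belongs to the TATA box, and GGGCGG is found in Sp1 sites. TGACG is found in cAMP response elements. Cebpa lies on the forward strand at chr7:35119043-35119342, Cebpb on the forward strand at chr2:167688665-167688964 and Cebpg on the reverse strand at chr7:35056517-35056816.
Cebpa: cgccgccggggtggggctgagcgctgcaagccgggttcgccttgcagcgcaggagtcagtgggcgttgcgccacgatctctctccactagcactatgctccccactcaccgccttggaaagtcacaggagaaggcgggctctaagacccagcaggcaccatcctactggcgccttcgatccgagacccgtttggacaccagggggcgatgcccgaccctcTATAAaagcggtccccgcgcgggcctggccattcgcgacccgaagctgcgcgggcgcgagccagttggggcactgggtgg
Cebpb: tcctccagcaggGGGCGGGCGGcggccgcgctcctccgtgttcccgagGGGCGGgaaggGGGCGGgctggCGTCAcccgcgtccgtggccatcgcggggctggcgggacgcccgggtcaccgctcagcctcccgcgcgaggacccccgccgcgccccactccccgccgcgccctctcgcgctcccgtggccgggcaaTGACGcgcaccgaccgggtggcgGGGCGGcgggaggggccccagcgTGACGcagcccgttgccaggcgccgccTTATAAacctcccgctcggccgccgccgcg
Cebpg: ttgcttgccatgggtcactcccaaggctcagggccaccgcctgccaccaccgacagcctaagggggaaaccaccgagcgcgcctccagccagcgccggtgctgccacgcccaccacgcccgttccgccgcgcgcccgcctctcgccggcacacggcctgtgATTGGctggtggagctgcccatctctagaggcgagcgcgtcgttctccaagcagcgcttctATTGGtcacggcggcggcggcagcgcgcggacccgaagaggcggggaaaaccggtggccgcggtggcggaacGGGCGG

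All 3 promoters were rich in CpG. The Cebpb promoter had 80.7% GC, 50 CpG and a ratio of observed to expected CpG of 1.03, higher in GC than 99.2% of 32851 promoters. The Cebpg promoter had 71.7% GC and a ratio of 0.988, and the Cebpa promoter had 67.3% GC and 0.853, while the medians over all promoters were 52.7% and 0.384. No match to TTGCNNAA was in any of the 3 windows, and 10.8% of all promoters and 5.9% of 3576 CpG-rich promoters of protein-coding genes hold one. TGACG was in Cebpb 3 times, at positions -180, -53 and -7 from the start, and is in 20.8% of all and 36.2% of CpG-rich promoters. GGGCGG was in Cebpb 5 times, with an overlapping pair, and in Cebpg once, against 35.7% of all and 79.7% of CpG-rich promoters. TATAA was in Cebpa at -30 and in Cebpb at 21 and 22, where overlapping matches on opposite strands form TTATAA, against 24.9% of all and 9.34% of CpG-rich promoters. CCAAT was in Cebpg at -89 and -28, against 37.4% of all and 38.1% of CpG-rich promoters.

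The starts of all genes were read for scale. Among autosomal protein-coding genes whose promoter entry matched the gene start, 3576 had a CpG-rich promoter (at least 55% GC and a ratio of at least 0.6). Their level was 1.00 (0.970 to 1.03) within 1 kb of the start and 1.35 (1.33 to 1.37) from 1 to 5 kb away. The other 6265 genes had 1.08 (1.06 to 1.11) and 1.08 (1.07 to 1.09). No fragment lay within 1 kb of the start in 37.6% of the CpG-rich genes and in 38.5% of the others, so the empty start of Cebpa, 1 of the 3 members with a known start, is common at this depth. The part of base composition in these values was not tested.

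**Figure D3:**
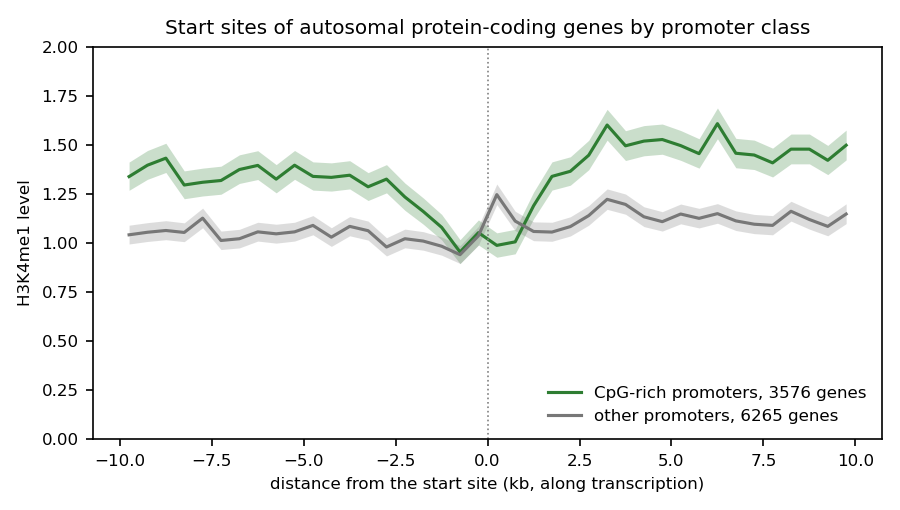
H3K4me1 level (vertical axis) in steps of 500 bp against the distance from the start site (kb, along transcription) for CpG-rich and other promoters; bands are exact 95% Poisson intervals. The CpG-rich curve dips to about 1 within 1 kb of the start, from 1.35 at 1 to 5 kb, and the other promoters had 1.08 in both ranges.

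Beyond the genes themselves, the surroundings of Cebpb stood out. With 100 kb on each side, Cebpb had 320 fragments and a level of 2.83 (2.52 to 3.15), rank 37 of 20665 autosomal protein-coding genes, whose median was 1.23. Both sides were high, with 2.54 (2.14 to 3.00) at lower and 3.15 (2.70 to 3.65) at higher coordinates. The 20 bins of 10 kb ranged from 1.42 to 4.45 with a median of 2.85. Intervals lay above 1 in 17 bins, and 9 bins reached a level of 3, beside 7.91% and 1.5% of all autosomal bins. The bins touching the gene, among these 9, held 18 and 21 fragments. They include the 10 and 7 fragments of its 2.5 kb flanks, on which Cebpb was chosen. The 17 fragments of its window also count among the 320. Protein-coding genes numbered 11 within 500 kb. Of the 4133 genes in the same of 5 groups by gene density, whose median over such a stretch was 1.15, 11 were higher. The nearest protein-coding genes were Tmem189, 27.4 kb away with a level of 2.44 (1.67 to 3.45), and the tyrosine phosphatase gene Ptpn1, farther off at 240 kb with 1.86 (1.40 to 2.41).

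Against its own flanks, the level of Cebpb was 1.68 (0.978 to 2.69) with 1 inside the interval. Cebpe had 2.97 (1.79 to 4.64) on this scale. Of the 13 libraries above 20000 fragments, 12 had a level above 1 over the 200 kb of Cebpb and 10 had an interval above 1, from 0.822 in library 5-5 through a median of 2.57 to 5.76 in library 4-2. The libraries named 4 had 4.16 (3.32 to 5.15) and those named 5 had 2.54 (2.22 to 2.88), intervals of counting error alone. Single libraries overlapped between the sets. Among those above 20000 fragments, the levels were 5.76, 1.99 and 4.84 in those named 4 and 0.822 to 4.285 in those named 5. The shallower library 5-11 had 5.28 (1.09 to 15.4) from 3 fragments. Whether these sets are the batches is not given in the labels.

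The surroundings of Cebpa were split. At higher coordinates, the side into which Cebpa is transcribed, the 100 kb had a level of 2.81 (2.39 to 3.29), with a highest bin of 4.63 (3.02 to 6.78) from 26 fragments of 7 libraries in the third bin from the gene. At lower coordinates it was 1.37 (1.08 to 1.71). Between Cebpg and Cebpa, 62.7 kb without either gene held 23 fragments of 12 libraries, a level of 0.652 (0.414 to 0.979). The lowest bin of this stretch held 1 fragment, a level of 0.178 (0.0045 to 0.991). Over both flanks Cebpa had 2.06 (1.81 to 2.35), with a level above 1 in 13 of 13 libraries and an interval above 1 in 10, from 1.15 in library 5-9 to 3.02 in library 5-3. Cebpa itself therefore had the lowest level of the family, while its 200 kb ranked 744 of 20665. A myeloid enhancer of Cebpa has been described about 37 kb after its start, and within 2.5 kb of that distance lay 3 fragments of 2 libraries, a level of 1.07 (0.220 to 3.12). The amino acid transporter gene Slc7a10, next to Cebpa on the high side, had 3.29 (2.31 to 4.53).

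Cebpg shares part of these flanks. On its other side lies Pepd, a dipeptidase gene with a level of 1.92 (1.62 to 2.25), and its 100 kb at lower coordinates had 1.99 (1.64 to 2.40). Gm45095, which overlaps the start of Cebpg, had 2.73 (1.36 to 4.89) and counts some of the same fragments. Over both flanks Cebpg had 1.8 (1.56 to 2.05).

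Cebpe had a level of 1.78 (1.54 to 2.04) with 100 kb on each side, in the densest of the 5 gene density groups, where the median was 1.44. An interval above 1 was found in 5 of 20 bins. The bin just below the gene had 3.02 (1.76 to 4.84). The others lay at higher coordinates, from 2.67 (1.49 to 4.40) just beside the gene to 3.91 (2.45 to 5.93) in the highest. The bins touching the gene held 17 and 15 fragments, which include the 8 and 9 of the 2.5 kb flanks on which Cebpe was chosen. Slc7a8, an amino acid transporter gene 10.0 kb away, had 2.42 (1.94 to 2.98), while Gm29776 on the other side had 1.10 (0.475 to 2.17). Cebpd had 1.02 (0.843 to 1.22). Its 20 bins ran from 0.356 to 1.96, all with 1 inside the interval. Single libraries above 20000 fragments ran from 0.394 to 1.51. The neighbours of Cebpd also had 1 inside their intervals. Mzt2 had 1.34 (0.749 to 2.21), and Spidr, a DNA repair gene that overlaps the end of Cebpd, had 0.989 (0.835 to 1.16). Of the 5 members, 4 had an interval above 1 over these stretches and 0 had one below, against 54.8% and 19.4% of genes. The stretches of Cebpa and Cebpg overlap and count many of the same fragments. Those of Cebpb and Cebpe contain the windows on which these genes were chosen, so the count is a description only.

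**Figure D4:**
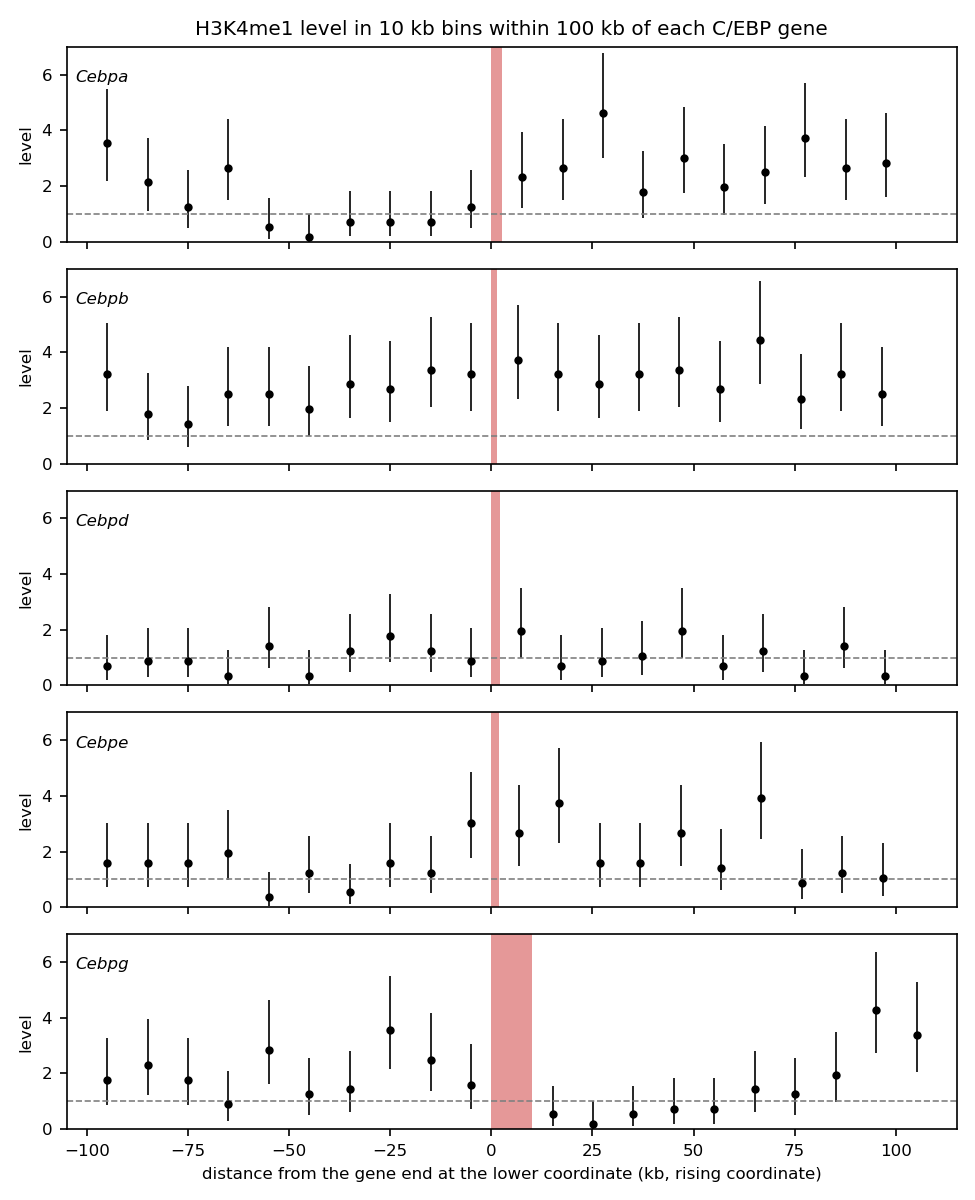
H3K4me1 level (vertical axis) in 10 bins of 10 kb on each side of each C/EBP gene, against the distance from the gene end at the lower coordinate (kb); bars are exact 95% Poisson intervals, shading is the gene and the dashed line is a level of 1. Cebpb is high throughout, Cebpa is low between Cebpg and the gene and high after it, and every Cebpd bin has 1 inside its interval.

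**Figure D5:**
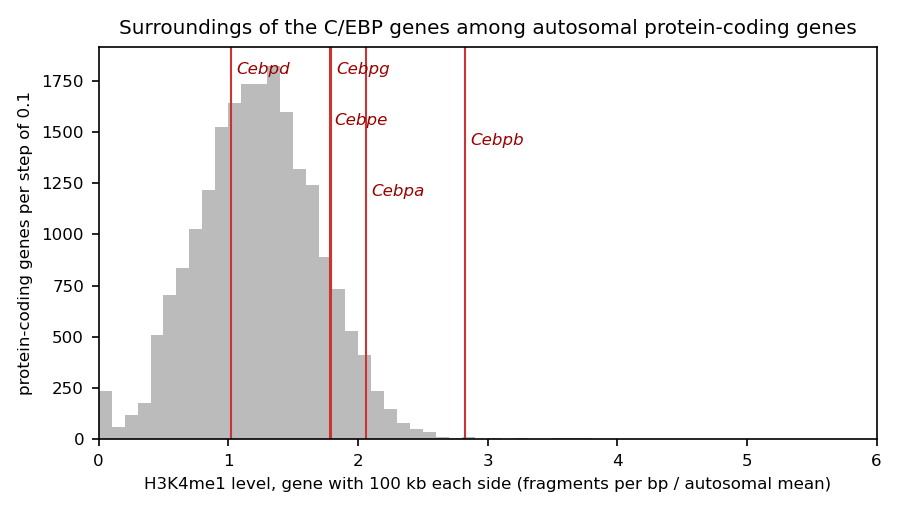
Number of autosomal protein-coding genes (vertical axis) by H3K4me1 level over the gene with 100 kb each side (horizontal axis), with the C/EBP genes as red lines. Cebpb (2.83) lies in the far upper tail and Cebpd (1.02) below the median of 1.23.

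Genes that work with the C/EBP factors were taken as lists. Among 22 other bZIP genes, which supply dimer partners, the median level was 1.42, with 5 intervals above 1 and 0 below. Ddit3, also called CHOP, a C/EBP relative that blocks its partners under stress, was highest at 2.88 (1.68 to 4.61), followed by Batf, a factor of lymphocytes, at 2.67 (1.91 to 3.62). Junb had 1 fragment and 0.260 (0.00659 to 1.45), and Creb1, the cAMP response factor, had 0.811 (0.565 to 1.13). Among 16 upstream regulators and cofactors the median was 1.51, with 5 above 1 and 1 below. Spi1, which acts with Cebpa in myeloid cells, had 2.41 (1.8 to 3.16) and the histone deacetylase gene Hdac1 had 2.03 (1.42 to 2.81). Cop1, a ubiquitin ligase that degrades Cebpa, had 0.822 (0.626 to 1.06), and Pparg, the adipocyte factor, had 0.741 (0.559 to 0.962).

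Targets of the family were read in the same way. The 12 myeloid targets had a median of 1.43, with 2 intervals above 1 and 1 below. Lcn2, a neutrophil granule protein, had 3.29 (1.84 to 5.43) and the granule protease gene Prtn3 had 1.88 (0.861 to 3.57), while Camp had 0.754 (0.155 to 2.20) and the oxidase gene Cybb, on chromosome X, had 0.588 (0.354 to 0.918). The 12 metabolic targets had a median of 1.46, with 2 above and 1 below. Slc2a4, the insulin-responsive glucose transporter, had 3.09 (1.86 to 4.83) and Fabp4, a fatty acid carrier of adipocytes, had 2.49 (1.33 to 4.26), while Alb, encoding albumin, had 0.515 (0.189 to 1.12) and Cps1 of the urea cycle had 0.453 (0.304 to 0.651). The 14 genes of the ovarian response to gonadotropin, in which Cebpb acts, had a median of 1.11 with 5 above and 1 below. Inha had 2.15 (1.03 to 3.95) and Star, which brings cholesterol into mitochondria, had 2.13 (1.19 to 3.52). The matrix gene Ptx3 had 0.326 (0.0395 to 1.18) and the growth factor gene Areg had 0.257 (0.0312 to 0.929). Intervals above 1 thus made up 22.7% of the bZIP genes, 31.2% of the regulators, 16.7% of each target list and 35.7% of the ovarian genes, beside 29.5% of all genes, whose median was 1.21. Longer genes hold more fragments and have narrower intervals, and gene length was not matched between lists. The shares therefore do not rank the lists by level, as the ovarian genes had the highest share and the lowest median, 1.11.

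Markers of the labelled cell type and of cells that could come with it were read last. Of 10 oocyte genes, 6 had an interval above 1 and 0 below, with a median of 2.22, led by Zp1 with 2.99 (1.8 to 4.67) and H1f8 with 2.76 (1.58 to 4.48), and lowest at Zp2 with 1.21 (0.692 to 1.97) and Zar1 with 0.962 (0.312 to 2.25). From the libraries named 4 the median of the oocyte list was 1.31 and the count above 1 was 1. Over all genes, 29.5% were above and 7.17% below. Of 10 cumulus and granulosa cell genes, 3 were above and 2 below with a median of 1.04. Amh had 2.63 (1.31 to 4.71) and Hsd17b1 had 2.60 (1.34 to 4.54), while Fshr had 0.669 (0.533 to 0.829) and Vcan had 0.537 (0.357 to 0.776). Of 8 blood cell genes, 1 was above and 1 below with a median of 0.936, from Cd3e with 2.68 (1.72 to 3.99) and Nkg7 with 2.04 (0.820 to 4.20) to the globin gene Hbb-bt, which has a near-identical copy, with 0.556 (0.0673 to 2.01). Every cell carries these genes, so a level does not show which cells were present, and the part of other cells in the C/EBP values was not tested.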

How the data were processed

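Only the H3K4me1 fragments were used. The authors deposited 1 line per fragment with a count of 1, per the file itself, and each region's count here is the number of fragment midpoints in it. Coordinates are mm10, per the submitters' processing notes. For aligner, duplicate removal, quality filters and any cut-site shift, the method is not given in the sources used. Exact repeats numbered 5 lines. Gene positions came from RefSeq GRCm38.p6 (20665 autosomal protein-coding genes), and the autosomal mean was taken between each chromosome's outermost fragments. Counting was done in Python 3.11.15 with numpy 2.4.6, pandas 2.3.3 and scipy 1.17.1, and was tested on simulated data. With 1 pooled sample there is no p-value. A count of 0 is given with the level of 3 fragments as its limit, or for an empty flank with the upper end of its interval. The members and lists were chosen with earlier results of these data known. Named genes were the members, the 2 highest and 2 lowest of each list, the nearest coding genes, those next to Cebpb and Cebpe in rank, and the 3 most like each over libraries; 1 gene that this rule names in the blood list is not reported here. Strand was taken from the promoter table, so a planned window at an enhancer of Cebpe was dropped, and proteins were not used here. Alternatives changed the window, the placing, the libraries and the base.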

Additional observations from a re-analysis of the deposited data

How the results depend on the processing

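Of 266 values under alternative settings, 251 lay inside the 95% interval of the reported level, among them all 154 that left out 1 library. Leaving out 1 of 14 libraries removes few fragments beside the wide intervals of single genes, so such values could hardly fall outside. The values outside came from a narrower window, from the flanks as the base or from the libraries named 4 alone. Cebpb ran from 4.12 without library 4-5 to 5.22 without 5-7, and Cebpe from 4.24 without 5-2 to 5.64 without 5-6. Over the gene body alone Cebpb fell to 0 (limit 3.52), Cebpa to 0 (limit 2.025), Cebpe to 1.96 and the family to 1.84. With 1 kb on each side Cebpb had 2.02 (0.551 to 5.18), Cebpd 0.418 and the family 1.88. With the 100 kb flanks as the base, the levels were 1.68 for Cebpb, 2.97 for Cebpe, 1.12 for Cebpg and 1.41 for the family. In the libraries named 4 alone, Cebpd had 4.12, and with 100 kb on each side Cebpb had 4.16, Cebpd 1.23 and Cebpe 1.34. The medians of the lists, the values with 100 kb on each side and the merging of near-identical fragments were added after the data were seen. No paired analysis was possible because the table pools both batches and no test between groups was made. Depth limits every single gene, since a level of 1 gives about 4 fragments at a short member.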

Other observations

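The genes next to Cebpe in level were Abhd6 with 6.19 (5.38 to 7.10) and Duxf3 with 5.39 (3.52 to 7.89) above. Hjurp with 4.86 (3.75 to 6.20) and Sox8 with 4.72 (3.09 to 6.92) came below. Duxf3 belongs to a multigene family, and the placing of reads among its copies was not tested. Below Cebpb came Gpihbp1 with 4.59 (2.68 to 7.36) and Gm6370 with 4.57 (2.79 to 7.06), and their intervals overlap those of both members.

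Likeness over the 14 libraries was taken as the cosine between depth-scaled counts among 11333 genes with at least 15 fragments. The genes most like Cebpb were Bche (0.923), Ppp1r8 (0.922) and Gpat4 (0.921), with levels of 0.504, 2.01 and 1.43, and those most like Cebpe were Sdsl (0.944), Naip5 (0.916) and Nbeal2 (0.915). Cebpb and Cebpe had a cosine of 0.561 with each other, beside a median of 0.560 for Cebpb with all genes. Those of Cebpe had a median of 0.587. The values rest on 17 and 19 fragments, and the genes were picked as the highest of all compared, so they are a description only.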
